A study of Mus musculus with 4 samples.

Results

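MHC class II molecules are cell-surface proteins that show peptides taken from outside the cell to CD4 T cells, and 9 genes of this system were listed for mouse mammary cells: H2-Aa, H2-Ab1, H2-Eb1, H2-DMa, H2-DMb1, H2-Oa, H2-Ob, Cd74 and Ciita. A gene was taken if the array's annotation gave it a probe set with that symbol and no other, which held for 8 of the 9, among 22180 genes with such a probe set. Each of the 8 had 1 such probe set. The only probe set of Cd74 also carries the symbol of a microRNA gene, so Cd74 has no value here. The samples were mammary epithelial cells from the inguinal glands of 4 week-old mice on a congenic FVB/NJ background, in 2 groups of 2: MMTV-Cre transgenic mice and their wild-type littermates. Samples of 1 group are labelled biological replicates, and each was measured on 1 Affymetrix array. In the transgene, Cre recombinase is under the long terminal repeat of a mammary tumour virus. That promoter is active in mammary epithelium and also in some lymphoid cells, and the labels do not name the transgenic line or any floxed allele. The glands are labelled as free of lymph node, and stroma was removed by centrifugation after collagenase digestion.

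The class II molecule pairs an alpha with a beta chain, encoded by H2-Aa and H2-Ab1 for I-A and by H2-Eb1 for the beta chain of I-E. Mice of the FVB background carry the q haplotype of this locus, in which no I-E molecule is made. New class II chains are held by the invariant chain, the product of Cd74, until the chaperone H2-DM, made of the H2-DMa and H2-DMb1 chains, helps to load peptide. H2-O, made of H2-Oa and H2-Ob, restrains H2-DM and is found mainly in B cells and some dendritic cells. The co-activator Ciita is the master regulator of these genes. B cells, dendritic cells and macrophages are the usual sources of class II transcripts, and epithelial cells can make them after interferon gamma.

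Ciita acts through factors bound to short promoter elements, among them an X box bound by RFX proteins and a Y box bound by NF-Y, the factor of inverted CCAAT sequences. The stretches shown here hold both elements in 5 members, so that the shared spacing can be seen. RefSeq promoter windows of mouse assembly GRCm38.p6, which is of strain C57BL/6J, were matched for 6 members and run from 250 bases before to 50 after a start site. Capitals mark a match to GNAAC (the X core) and a match to TGATTGG (the Y core) that follows it after 20 to 40 bases, and 10 further bases are shown at each end, 5′ to 3′ on the gene's strand.
H2-Aa, chr17:34287857-34287914, minus strand: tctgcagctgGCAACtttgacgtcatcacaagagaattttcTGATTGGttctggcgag
H2-Eb1, chr17:34305766-34305822, plus strand: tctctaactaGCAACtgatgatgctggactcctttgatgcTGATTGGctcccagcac
H2-DMb1, chr17:34153087-34153144, plus strand: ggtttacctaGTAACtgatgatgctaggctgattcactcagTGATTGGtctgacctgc
H2-Oa, chr17:34092293-34092350, plus strand: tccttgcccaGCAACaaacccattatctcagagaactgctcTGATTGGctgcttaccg
H2-Ob, chr17:34238808-34238862, plus strand: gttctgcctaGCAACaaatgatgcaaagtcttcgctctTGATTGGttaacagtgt

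The cores lay 26 bases apart in H2-Aa, H2-DMb1 and H2-Oa, 25 apart in H2-Eb1 and 23 apart in H2-Ob. The Y core began between 45 and 63 bases before the start site. Both windows of H2-DMa lacked the Y core letters and so the pair. Searched on both strands, the X core letters were in 84.8% and the Y core letters in 7.82% of all 32851 promoter windows, and the pair in that order and spacing was in 0.572% of them. The letters were written after the members' windows had been read, so these shares are a description. Of the other genes listed for this work, H2-Eb2 and Cd68 had a window with the pair. H2-Ab1 and Ciita were not matched, and Cd74, which has no expression value here, was left out of the members' windows.

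The values are log2 expression per probe set, on which array medians lay between 2.83 and 2.86. All 10 epithelial markers were measured and lay above the limit for dim genes, a mean of 2.84. All 6 fibroblast and all 5 endothelial markers did too, so this cannot tell epithelial cells from a mixture with other cells. Epcam had 8.67 and 8.52 in MMTV-Cre, against 8.61 and 8.64 in wild-type. The fibroblast marker Col1a2 had 9.70 and 9.71 in MMTV-Cre, against 9.54 and 9.58 in wild-type. Wild-type replicate 1 stood apart from the other arrays. Of 11668 genes, 63 exceeded their next highest array by 1 log2 unit or more there, against 2 or fewer in each of the others, and Glycam1, a gene of lymph node vessels that mammary epithelium also expresses, stood at 10.19 there and between 2.72 and 2.87 in the others. Differences of the class II genes are therefore given with and without that array.

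No class II gene passed the test between MMTV-Cre and wild-type. The highest level of H2-Ab1, H2-Aa, Ciita, H2-Oa, H2-Ob and H2-DMb1 was in wild-type replicate 1, while wild-type replicate 2 lay below, among or just above the MMTV-Cre arrays. H2-DMa did not follow that array. Its MMTV-Cre levels were both below both wild-type levels, with a log2 difference of −0.34 that did not pass the threshold. The log2 differences are MMTV-Cre minus wild-type from limma across all genes, with 95% intervals and Benjamini-Hochberg adjustment, for n = 2 per group. Of the members, 3 lay above the limit for dim genes, H2-Aa, H2-Ab1 and H2-DMa. The other 5 were taken from the same fit run on all 22180 genes, and their values lie where an array measures the size of a difference poorly.

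The I-A genes were the members that set wild-type replicate 1 apart most. H2-Ab1, the I-A beta chain, stood at 4.43 and 4.88 in MMTV-Cre, against 6.49 and 4.86 in wild-type. The groups overlapped, since wild-type replicate 2 lay between the MMTV-Cre arrays. The difference was −1.02 (95% interval −2.40 to 0.37, limma adjusted p = 0.964), a ratio of 0.494, and it was −0.20 (−0.81 to 0.40) without wild-type replicate 1. H2-Aa, the I-A alpha chain, stood at 3.18 and 3.40 in MMTV-Cre, against 4.16 and 2.998 in wild-type. Here wild-type replicate 2 was the lowest of all arrays and wild-type replicate 1 the highest, so the wild-type pair enclosed both MMTV-Cre values. The difference of −0.29 (−1.28 to 0.70, adjusted p = 0.990) turned to 0.29 (−0.18 to 0.76) without wild-type replicate 1. H2-Eb1, the I-E beta chain, was dim in all arrays, at 2.57 and 2.04 in MMTV-Cre, against 2.55 and 2.36 in wild-type. Its highest value was in MMTV-Cre replicate 1 and its difference was −0.15 (−0.66 to 0.36, adjusted p = 0.989), or −0.05 (−0.72 to 0.62) without wild-type replicate 1. It was the only classical chain gene of the 3 measured without its highest value in wild-type replicate 1.

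**Figure D1:**
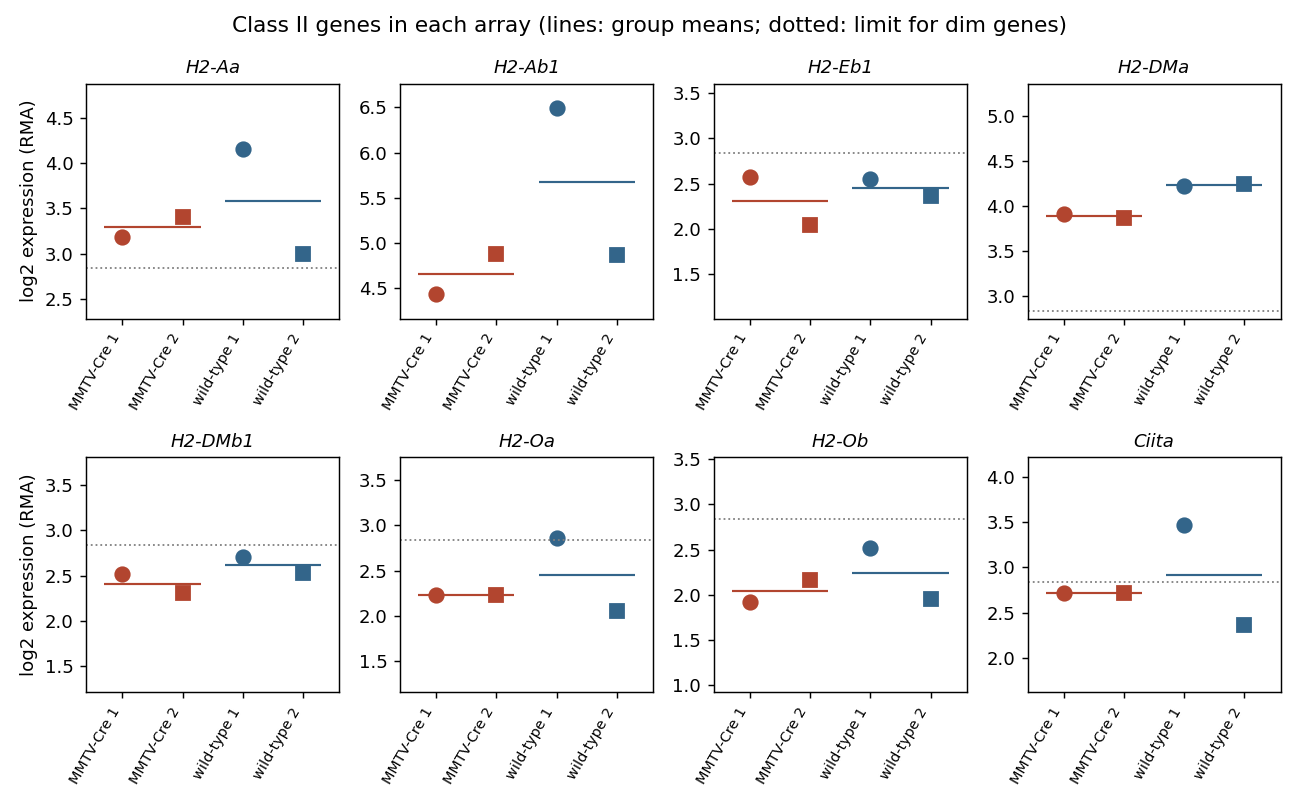
Log2 expression of the 8 class II genes (vertical axes, each spanning the same 2.6 log2 units) in the 2 MMTV-Cre arrays and then the 2 wild-type arrays, with a line at each group's mean and a dotted line at the limit for dim genes, 2.84. Wild-type replicate 1 stands above the other arrays for H2-Aa, H2-Ab1, H2-Oa, H2-Ob and Ciita, and both MMTV-Cre arrays stand below both wild-type arrays for H2-DMa and H2-DMb1.

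The H2-DM chains were the 2 members with both MMTV-Cre arrays below both wild-type arrays. H2-DMa stood at 3.91 and 3.87 in MMTV-Cre, against 4.22 and 4.24 in wild-type. Replicates of a group differed by far less than the groups did, with an SD of 0.03 in MMTV-Cre and 0.02 in wild-type. The difference was −0.34 (−0.62 to −0.07), with an unadjusted p = 0.0229 and an adjusted p = 0.964 by limma. It was −0.36 (−0.78 to 0.06) without wild-type replicate 1, so its size did not rest on that array. H2-DMb1 stood at 2.51 and 2.30 in MMTV-Cre, against 2.71 and 2.53 in wild-type, all below the limit for dim genes. Its difference was −0.21 (−0.56 to 0.14, adjusted p = 0.963) and −0.12 (−0.59 to 0.34) without wild-type replicate 1. MMTV-Cre replicate 1 lay just below wild-type replicate 2 for H2-DMb1, so the groups were barely separate.

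The H2-O genes were dim, with wild-type replicate 1 the highest array for both. H2-Oa stood at 2.23 in each MMTV-Cre array, against 2.86 and 2.05 in wild-type. H2-Ob stood at 1.92 and 2.16 in MMTV-Cre, against 2.52 and 1.95 in wild-type. In both genes wild-type replicate 2 lay below or within the MMTV-Cre values, so the groups overlapped. The differences were −0.23 (−0.88 to 0.43) for H2-Oa and −0.20 (−0.73 to 0.34) for H2-Ob, with adjusted p-values of 0.988 and 0.982. Without wild-type replicate 1 they turned to 0.18 and 0.09.

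Ciita, the co-activator, lay just under the limit for dim genes with a mean of 2.82. It stood at 2.72 in each MMTV-Cre array, against 3.47 and 2.37 in wild-type. The MMTV-Cre values were equal to the last digit given, as they were in 29 of 22180 genes, so their lack of spread is not a measure of precision. Wild-type replicate 1 was the highest and wild-type replicate 2 the lowest array. The difference was −0.20 (−1.06 to 0.67, adjusted p = 0.989) and turned to 0.36 (−0.06 to 0.78) without wild-type replicate 1.

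Counted together, all 8 measured members had a difference below 0, where 50.4% of all 22180 genes did. The median difference of the members was −0.22, against −0.00 over all genes. Without wild-type replicate 1, 4 of the 8 were below 0, where 51% of all genes were, and the members' median was 0.02. Of the 8 members, 0 passed at an adjusted p under 0.05, where 0% of genes passed, and 1, H2-DMa, had an unadjusted p under 0.05, where 4.56% of genes did. Without wild-type replicate 1 that count was 0 of 8, with an unadjusted p = 0.0817 for H2-DMa by limma. Both MMTV-Cre arrays were below both wild-type arrays in 2 of 8 members, where 16.3% of genes had that pattern, and above in 0 of 8, where 16.6% did. The members share cells and arrays and are not independent replicates. An exact permutation test of 2 arrays against 2 cannot give a two-sided p under 0.333, and the precision of each single difference is low.

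**Figure D2:**
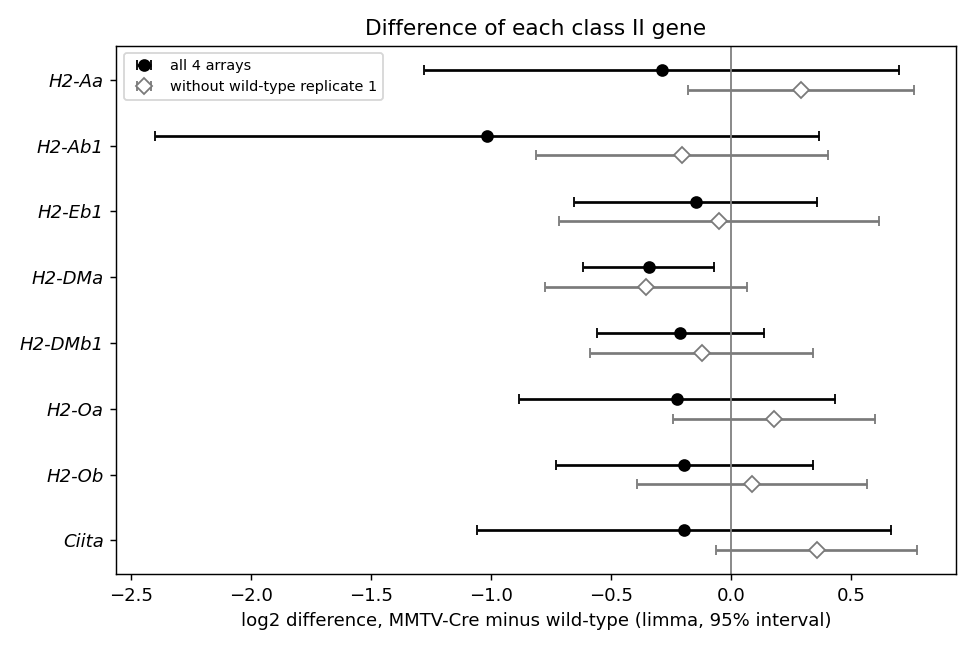
Log2 difference, MMTV-Cre minus wild-type, of the 8 class II genes with 95% intervals from limma, with all 4 arrays (filled circles) and without wild-type replicate 1 (open diamonds). With all arrays every point lies below 0 and only the interval of H2-DMa, −0.62 to −0.07, leaves out 0; without wild-type replicate 1 the points of H2-Aa, H2-Oa, H2-Ob and Ciita lie above 0.

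The excess in wild-type replicate 1 differed in size among the members. Set against the mean of the other 3 arrays, wild-type replicate 1 was higher by 1.77 for H2-Ab1, 0.97 for H2-Aa, 0.87 for Ciita, 0.69 for H2-Oa and 0.51 for H2-Ob. It was higher by only 0.26 for H2-DMb1, 0.23 for H2-Eb1 and 0.21 for H2-DMa. In H2-Ab1 this is a ratio of 3.40 and in H2-DMa of 1.16. Wild-type replicate 1 was the highest array in 6 of 8 members, where it was in 23.4% of all genes, and it stood at least 0.5 above each other array in 4 of 8, where it did in 1.37% of genes. These are values of a single sample and were not tested. The members' mean level, relative to the average of each gene, stood at −0.17 and −0.16 in MMTV-Cre, against 0.52 and −0.19 in wild-type.

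Genes near the average of the classical chain genes were found from the mean centred profile of the 3 measured classical chain genes, which stood at −0.27 and −0.22 in MMTV-Cre, against 0.74 and −0.25 in wild-type. Likeness was the root mean square difference from that profile over the 4 arrays, among the 11668 genes tested. The chain genes themselves lay farther from their average than the genes named next, at 0.130 for H2-Aa, 0.376 for H2-Ab1 and 0.389 for H2-Eb1. Symbols of predicted genes, small RNA genes and pseudogenes were left out of the search. The 6 nearest other genes were then Vav1 (0.0462), Cmah (0.0488), Ssh2 (0.0503), Ubd (0.0545), Ifngr1 (0.0621) and Malt1 (0.0641). Vav1, a signalling protein of blood cells, stood at 2.68 and 2.71 in MMTV-Cre, against 3.56 and 2.64 in wild-type. Ubd, a ubiquitin-like modifier gene induced by interferon gamma, stood at 3.44 and 3.61 in MMTV-Cre, against 4.59 and 3.52 in wild-type. Malt1, part of the antigen receptor pathway to NF-kB in lymphocytes, stood at 5.16 and 5.24 in MMTV-Cre, against 6.12 and 5.30 in wild-type. These genes were chosen for likeness to that profile, so a high wild-type replicate 1 with the other arrays level was fixed by the choice. None of the 6 passed (limma adjusted p from 0.964 to 0.971).

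All members but Ciita and Cd74 lie in the class II region of chromosome 17, where genes for class I peptide supply stand between class II genes. Between H2-Oa and H2-Eb2 the RefSeq table orders 15 genes, of which 14 had a probe set with 1 symbol, 7 of them members. The proteasome subunit genes Psmb8 and Psmb9 and the peptide transporter genes Tap1 and Tap2, which serve class I loading, differed in wild-type replicate 1 from the mean of the other 3 arrays by 0.01, 0.10, −0.02 and 0.23. The bromodomain gene Brd2 differed by 0.04. The value of Tap2 was close to those of the members H2-Eb1 (0.23) and H2-DMa (0.21), so class II genes and their neighbours were not fully apart on this measure. The class II beta chain gene H2-DMb2 had the largest value of the 14 genes, 2.30, from 1.64 and 1.65 in MMTV-Cre, against 3.86 and 1.38 in wild-type. H2-DMb2 and H2-DMb1 are close paralogues whose transcripts the probes may not separate fully, which was not tested. H2-Eb2, a further class II beta chain gene and also dim, stood at 1.71 and 1.98 in MMTV-Cre, against 2.33 and 1.94 in wild-type.

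**Figure D3:**
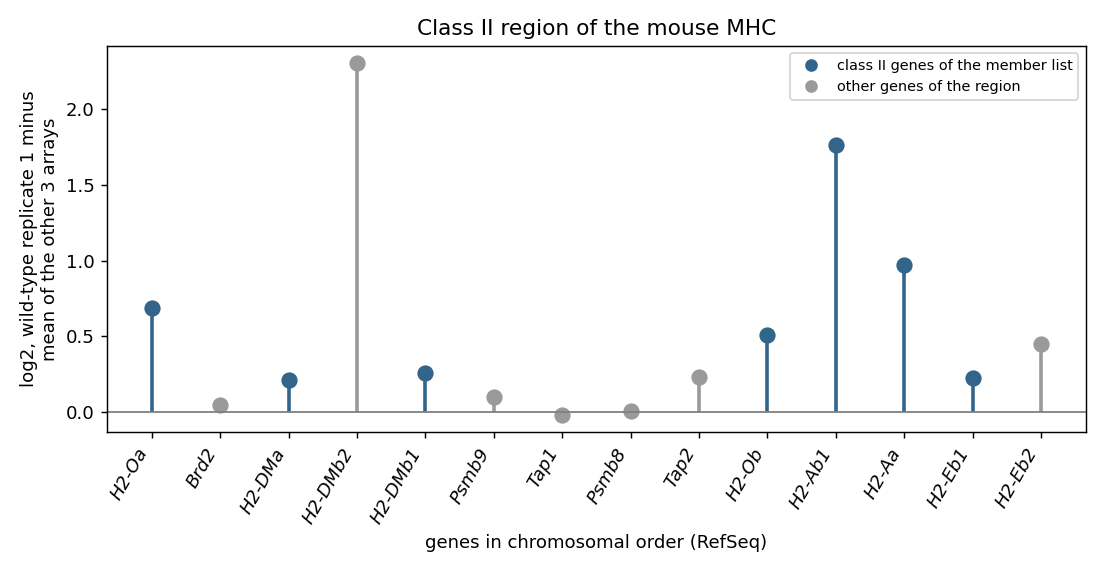
Log2 level in wild-type replicate 1 minus the mean of the other 3 arrays (vertical axis) for 14 genes of the class II region in RefSeq order, with class II genes of the list in blue and other genes in grey. H2-DMb2 (2.30, a dim gene), H2-Ab1 (1.77) and H2-Aa (0.97) stand highest, Brd2, Psmb9, Tap1 and Psmb8 lie between −0.02 and 0.10, and Tap2 (0.23) lies beside H2-Eb1 and H2-DMa.

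Of the 7 genes for factors that bind class II promoters, 0 were highest in wild-type replicate 1 and 0 passed the adjusted threshold. Their mean centred level lay between −0.05 and 0.04 in every array, an average over genes that went both ways. Rfx5, a subunit of the X box factor, stood at 4.02 and 4.14 in MMTV-Cre, against 3.87 and 4.37 in wild-type, and Rfxank, another subunit, at 4.21 and 4.30, against 4.09 and 4.14. For Rfx5 the wild-type arrays were the lowest and the highest of the 4. The NF-Y genes Nfyb and Nfyc had differences of −0.03 (−0.40 to 0.35) and 0.10 (−0.19 to 0.40). In the interferon gamma pathway, 7 of 8 measured genes had differences below 0, where 50.4% of all genes did, and 0 passed. The list's median difference was −0.07, and −0.03 without wild-type replicate 1. Of the 8 genes, 5 were highest in wild-type replicate 1, where 23.4% of all genes were. The receptor gene Ifngr1 stood at 6.41 and 6.37 in MMTV-Cre, against 7.24 and 6.37 in wild-type, and the transcription factor gene Irf8 at 4.67 and 4.43, against 5.36 and 4.66. Both were highest in wild-type replicate 1. The ligand gene Ifng was dim, at 2.31 and 2.14 in MMTV-Cre, against 2.56 and 2.52 in wild-type, with a difference of −0.32 (−0.63 to −0.01, limma unadjusted p = 0.0471, adjusted p = 0.963). Ifng was named for the smallest unadjusted limma p of the list. Of the 8 genes, 1 lay under 0.05 by that p, where 4.56% of all genes did. The kinase gene Jak2 had a difference of −0.08.

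Genes for class II peptide processing and turnover had a median difference of −0.04 and 0 passed the threshold. Of the 10 genes, 6 had a difference below 0, where 50.4% of all genes did. Ctss, the protease that trims the invariant chain, stood at 5.19 and 5.58 in MMTV-Cre, against 6.15 and 5.30 in wild-type, highest in wild-type replicate 1. Ifi30, a thiol reductase of the loading compartment, stood at 6.34 and 6.58 in MMTV-Cre, against 6.85 and 6.66 in wild-type, a difference of −0.29 (−0.66 to 0.07). The ubiquitin ligase genes Marchf1 and Marchf8, whose products remove class II from the surface, had differences of −0.20 and 0.23, with intervals that included 0. Among costimulatory genes, 5 of 6 had differences below 0 and were highest in wild-type replicate 1, and 0 passed. Of all genes, 50.4% had a difference below 0 and 23.4% were highest in that array. Without that array the median difference of the costimulatory list was −0.08. Cd86 stood at 3.70 and 3.93 in MMTV-Cre, against 4.52 and 3.92 in wild-type, and Cd274, the gene of the inhibitory ligand PD-L1, at 3.12 and 3.45, against 4.14 and 3.59. Cd80 and Cd83 had differences of −0.67 (−1.43 to 0.10) and −0.59 (−1.62 to 0.43).

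In the class I pathway, which serves all nucleated cells, single genes went both ways. Its 14 measured genes had a mean centred level between −0.05 and 0.04, a median difference of 0.03, 10 differences above 0 and 0 past the threshold. Nlrc5, the co-activator of class I genes and a relative of Ciita, stood at 3.64 and 3.31 in MMTV-Cre, against 3.90 and 4.07 in wild-type. Its groups did not overlap, with a difference of −0.51 (−0.91 to −0.11, limma unadjusted p = 0.0221, adjusted p = 0.964). Nlrc5 was named for the smallest unadjusted limma p of the list. Of the 14 genes, 1 lay under 0.05 by that p, where 4.56% of all genes did. The heavy chain gene H2-K1 stood at 7.13 and 7.16 in MMTV-Cre, against 7.41 and 7.35 in wild-type, a difference of −0.24 (−0.51 to 0.04). Tapbp and Canx, of the loading complex and the folding of heavy chains, had differences of 0.21 and 0.11 with intervals that included 0. Nlrc5 and H2-K1 were the 2 of 14 class I genes with both MMTV-Cre arrays below both wild-type arrays, and 2 of 14 had the opposite pattern, where 16.3% and 16.6% of all genes did.

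Marker lists of leukocytes, B cells and T cells had their highest level in wild-type replicate 1. Summed over a list's genes on the linear scale and given as log2, the pan-leukocyte list had a level of 6.53 and 6.63 in MMTV-Cre, against 8.78 and 6.61 in wild-type. For B cell markers it was 5.73 and 5.77 in MMTV-Cre, against 6.33 and 5.68 in wild-type, and all 10 measured genes were highest in wild-type replicate 1. Only 3 of these 10 lay above the limit for dim genes, and the B cell receptor gene Cd79a stood at 2.83 and 2.51 in MMTV-Cre, against 3.86 and 2.24 in wild-type. Cd79b stood at 2.69 and 3.06, against 3.55 and 3.06. The T cell list had 6.24 and 6.31 in MMTV-Cre, against 8.95 and 6.33 in wild-type, with all 10 genes highest in wild-type replicate 1. Mouse T cells make little or no class II. Cd3e, of the T cell receptor complex, stood at 3.26 and 3.08 in MMTV-Cre, against 6.005 and 3.19 in wild-type. The list of lymph node vessels and stroma, to which Glycam1 belongs, had 4.84 and 5.17 in MMTV-Cre, against 10.3 and 4.98 in wild-type. That sum is carried by Glycam1 and, without it, was 4.47 and 4.87 in MMTV-Cre, against 6.52 and 4.60 in wild-type. Of the remaining genes Cxcl13 stood at 2.65 and 3.597 in MMTV-Cre, against 6.19 and 3.13 in wild-type, and Madcam1 at 2.49 and 2.91, against 2.98 and 2.73. Chst4 and Fut7 were dim in all arrays. Sums without a gene were added after the values were seen.

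In the dendritic cell and macrophage lists most genes were highest in other arrays. The dendritic cell list had a summed level of 6.67 and 6.80 in MMTV-Cre, against 7.26 and 6.94 in wild-type, and 4 of its 10 genes were highest in wild-type replicate 1. Without Ccr7, a gene that lymphocytes also express, the sum was 6.40 and 6.42 in MMTV-Cre, against 6.55 and 6.64 in wild-type, highest in wild-type replicate 2. The brightest gene left in that sum was Cd209a, at 5.09 and 4.91 in MMTV-Cre, against 5.20 and 5.46 in wild-type. A sum on the linear scale rests most on its brightest gene, so that order of the arrays is not read further. Flt3, a growth factor receptor gene of dendritic cells, was dim at 2.02 and 2.33 in MMTV-Cre, against 2.42 and 2.04 in wild-type, and the dendritic cell factor Zbtb46 stood at 2.98 and 3.37, against 3.35 and 3.50. The macrophage list had 8.23 and 8.81 in MMTV-Cre, against 8.80 and 8.57 in wild-type, and was lowest in MMTV-Cre replicate 1. Adgre1 and Csf1r, macrophage receptor genes, had differences of −0.09 each, and 2 of the 12 macrophage genes were highest in wild-type replicate 1. The list went both ways, with 8 differences below 0 and 4 above, from −0.49 for Lyz2 to 0.45 for C1qa. Lyz2 stood at 6.02 and 6.54 in MMTV-Cre, against 7.20 and 6.33 in wild-type. C1qa stood at 3.11 and 4.01 in MMTV-Cre, against 3.15 and 3.06 in wild-type. The part of these cells in the class II levels was not tested, and in bulk samples fewer cells of a type and less RNA per cell cannot be told apart. The epithelial list had a mean centred level of −0.06 and 0.05 in MMTV-Cre, against 0.00 and 0.01 in wild-type. The fibroblast list stood at −0.19 and 0.38 in MMTV-Cre, against −0.09 and −0.10 in wild-type, so it did not set wild-type replicate 1 apart.

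**Figure D4:**
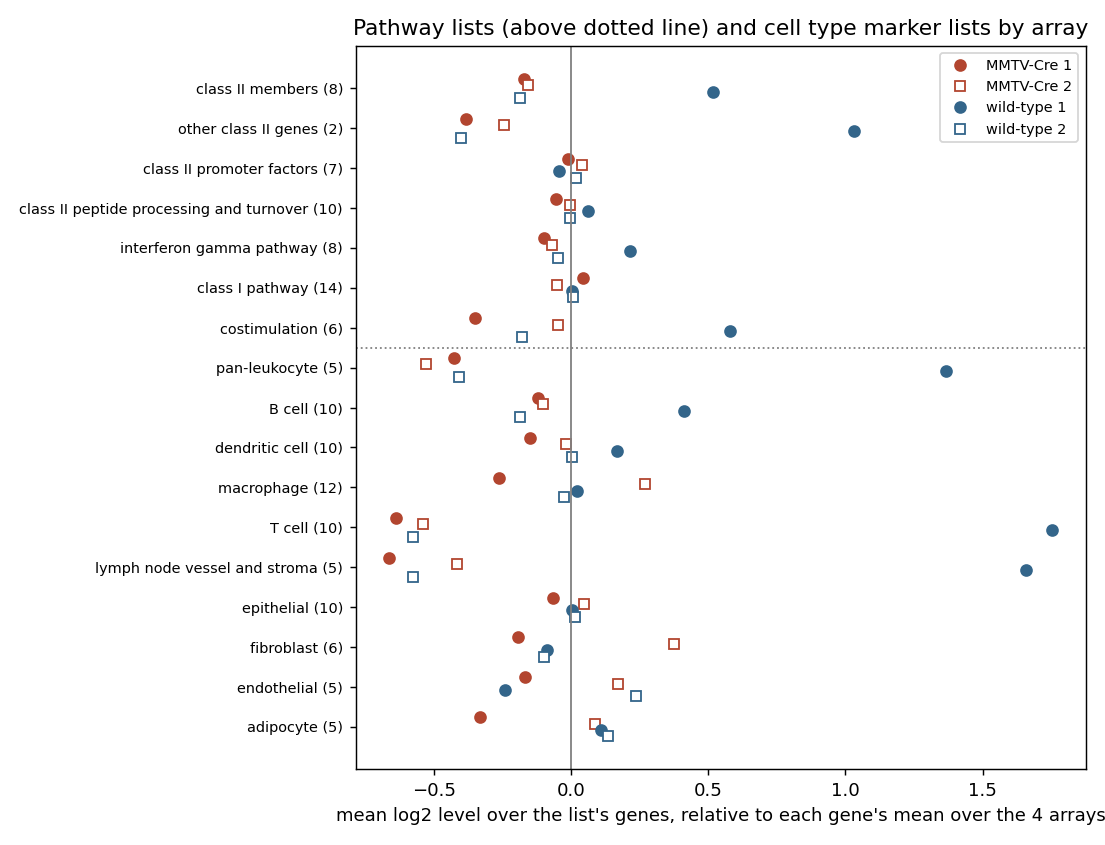
Mean log2 level of each pathway and marker list relative to the average of each gene (horizontal axis), with the number of measured genes in parentheses, for MMTV-Cre (red) and wild-type (blue), replicate 1 filled and replicate 2 open. Class II members (0.52 in wild-type replicate 1) stand apart in the same array as the pan-leukocyte, B cell, T cell and lymph node lists, while the means of the class I, promoter factor and epithelial lists lie near 0 in all arrays. In the lymph node list this rests on Glycam1 and Cxcl13, and its other genes hardly set that array apart.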

How the data were processed

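The authors deposited 1 log2 value for each probe set and array, computed with oligo and RMA (background correction, equal distributions across arrays, summary of probes) according to the submitters' processing notes. Tool versions are not given in the sources used for this work. The log2 scale was read from the values (0.371 to 12.5), and no centring of genes was seen. RMA hides a shift shared by most transcripts.

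Of 41345 probe sets, 23521 had 1 symbol in the platform annotation, 1814 several and 16010 none named here. A gene was represented by its probe set with the highest mean, and 11668 of 22180 genes at or above the median probe set mean of 2.84 were tested. The comparison used limma 3.58.1 under R 4.3.3 (lmFit, eBayes without trend, two-sided, Benjamini-Hochberg at 0.05), tested on simulated data. The number of arrays limits precision. P-values rest on the spread between the samples of a group, which limma moderates for each gene with the spread across all genes fitted. They therefore do not measure the spread of 1 gene in these 4 samples alone.

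The members and lists were chosen with earlier results of these data known. Named genes were all members, up to 4 genes per pathway list by smallest p, the first 2 measured genes per marker list and the 6 genes nearest in pattern. Brd2, Psmb8, Psmb9, Tap1 and Tap2 were named as neighbours after their values were seen. Alternatives were other filters, mean of probe sets, quantile normalization, median centring, variance trend, robust variance, replicate block, an unadjusted threshold and leaving out each array. Same-numbered samples did not deviate together (correlation across genes −0.04), so replicate numbers were not taken as pairs.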

Additional observations from a re-analysis of the deposited data

How the results depend on the processing

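No class II gene passed an adjusted p under 0.05 in any alternative, limma fits without 1 array included. Over all genes the count was 0. Leaving out single arrays gave 0 to 13 genes, and the 13 arose when wild-type replicate 2 was left out. At an unadjusted p under 0.05 it was 504 of 11668 genes, and 1 of the 3 members tested, H2-DMa. With the replicate number as a block 0 genes and 0 members passed, and it changed no call. The stricter filter, a mean of at least 4.56, left H2-Ab1 alone, so that the members' median was −1.02 and 0 members were lower in both MMTV-Cre arrays. Without 1 array each, the members' median ran from −0.55 (without wild-type replicate 2) to 0.02 (without wild-type replicate 1), and the count lower in all MMTV-Cre arrays left ran from 2 to 7. It was 7 without wild-type replicate 2 and 4 without MMTV-Cre replicate 2. With fewer arrays the pattern is met more easily, and the share of all genes with it was not computed, so these counts are not read further. In the fits without 1 array the group with a lone array is taken to vary as the other does. Differences then ran from −0.87 to 0.29 for H2-Aa, −1.83 to −0.20 for H2-Ab1, −0.42 to 0.12 for H2-Eb1, −0.37 to −0.32 for H2-DMa, −0.32 to −0.11 for H2-DMb1, −0.63 to 0.18 for H2-Oa, −0.48 to 0.0871 for H2-Ob and −0.75 to 0.36 for Ciita. H2-Eb1 turned without MMTV-Cre replicate 2, and the other 4 that turned did so without wild-type replicate 1. No other filter, scaling, variance model or probe set rule turned a member's direction. Each measured member has 1 probe set with its symbol alone, so fitting such probe sets separately gave no further value. H2-Oa also has 1 probe set that carries several symbols, which was not used.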

Other observations

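H2-Ea, the gene of the I-E alpha chain and chosen after its values were seen, stood at 2.35 and 2.30 in MMTV-Cre, against 3.74 and 2.25 in wild-type. Its mean of 2.66 lay below the limit for dim genes. Its highest value was in wild-type replicate 1, unlike that of H2-Eb1, the gene of its partner chain. Cmah, a sialic acid hydroxylase gene, stood at 2.84 and 2.77 in MMTV-Cre, against 3.72 and 2.78 in wild-type, and Ssh2, a phosphatase gene of the actin cytoskeleton, at 5.34 and 5.51, against 6.42 and 5.47. Ccr7, a chemokine receptor gene of migrating dendritic cells and of lymphocytes, also chosen after its values were seen, stood at 4.12 and 4.71 in MMTV-Cre, against 5.90 and 4.52 in wild-type.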
